A study of Mus musculus with 162 samples.

Results

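The CXCR2 axis consists here of 7 mouse genes: the ligand genes Cxcl1, Cxcl2, Cxcl3, Cxcl5 and Ppbp and the receptor genes Cxcr2 and Cxcr1. They were chosen by symbol alone from the 46078 genes that every count file lists, and all 7 were found there. Their levels were followed in RNA-seq libraries from mice treated once per day with MC903 (calcipotriol, a vitamin D analog that gives an atopic dermatitis-like rash; 0.2 mM, 20 µL per the labels) or with its ethanol vehicle. In all, 144 libraries in 40 groups were used: 61 of cheek skin, 56 of the trigeminal ganglion (TG), which holds the sensory neurons of the face, and 27 of spinal cord.

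All mice were adult males labelled C57BL/6. Wild-type mice without injection were sampled in skin and TG on Day_1 (hours after the first application), Day_2, Day_5 and Day_8, and in spinal cord on Day_8. On Day_8, wild-type mice that had received 250 µg of anti-Gr1 (aGr1, an antibody used to deplete neutrophils) or PBS were sampled in all 3 tissues. Mice labelled TSLPR.KO, which the paper describes as deficient in Crlf2, the TSLP receptor gene, were sampled in skin and TG on Day_8 and Day_12. Mice labelled BLT1.KO, named for a leukotriene B4 receptor, were sampled in skin on Day_8; the source of this allele is not given in the sources used here. Thoracic spinal cord came from mice treated on the shaved back rather than the cheek, and per the methods with a larger volume. Each comparison set the MC903 libraries of a group against the ethanol libraries of the same tissue, genotype, injection and day, and so asked what MC903 changed in that group.

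Library depth ranged from 17431296 to 67342879 counts on genes in skin, from 15931871 to 62105901 in TG and from 21595429 to 50591655 in spinal cord. The tissue labels were checked with Krt14, a keratin of basal keratinocytes, and Scn10a, a sodium channel of sensory neurons. By which of the pair was higher, 0 of 61 skin and 0 of 56 TG libraries went against their label. A mixed library can pass this check. The highest Scn10a level in used skin, in wild-type Day_2 MC903 replicate 3, lay within the range of TG. The 18 wild-type Day_12 libraries were not used, because 6 of 9 labelled skin and 7 of 9 labelled TG went against their label. In skin labelled TSLPR.KO, Crlf2 had 2 to 8 counts on Day_8 and 18 to 60 counts on Day_12, against 77 to 442 counts in uninjected wild-type skin on Day_8. In skin labelled BLT1.KO, Ltb4r1 (the gene for BLT1) was at 2.33 to 3.70 cpm (each count divided by its library's counts on genes and scaled to a common total) with ethanol and 10.6 to 15.1 cpm with MC903, against 6.66 to 10.5 and 33.5 to 77.6 cpm in wild-type skin on Day_8. Its counts were thus lower than in wild-type skin but present, and higher with MC903. Whether the counted reads lie in the deleted part is not known for either gene, so both groups are called by their labels.

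The ligands of this axis are small secreted chemokines that carry the amino acid motif ELR before their first cysteines, and they draw neutrophils out of the blood by activating CXCR2, a G protein-coupled receptor on neutrophils. Epithelial cells, endothelium and myeloid cells make Cxcl1, Cxcl2, Cxcl3 and Cxcl5 under inflammatory signals, often through NF-kB, whereas Ppbp encodes the precursor of a chemokine stored in platelet granules. CXCR1 is the second receptor of the family. In skin the axis is known for bringing neutrophils into inflamed epidermis and dermis.

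The 5 ligand genes lie together on chromosome 5 (GRCm38, the assembly also called mm10), all on the plus strand: Cxcl5 (ENSMUSG00000029371) at 90759360 to 90761624, Ppbp (ENSMUSG00000029372) at 90768518 to 90770063, Cxcl3 (ENSMUSG00000029379) at 90786103 to 90789600, Cxcl1 (ENSMUSG00000029380) at 90891241 to 90893115 and Cxcl2 (ENSMUSG00000058427) at 90903871 to 90905938. Cxcr2 (ENSMUSG00000026180) is on chromosome 1 at 74153989 to 74161246, plus strand, and Cxcr1 (ENSMUSG00000048480) follows at 74191785 to 74194631, minus strand. Counts summed all exons of a gene, untranslated parts included. None of the 7 overlaps another annotated gene, but 5.84% of the 50-base windows of Cxcl2 and 4.24% of those of Cxcl3 also occur in other genes, among them each other, as do 4.01% of those of Cxcr2, so a few reads could be placed on more than 1 gene.

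Because Cxcl1, Cxcl2 and Cxcl3 rose in most of the same skin comparisons while Ppbp moved less, the 110 bases before the start of each are shown, from RefSeq's GRCm38.p6 annotation, 5′ to 3′ on the plus strand. RefSeq start sites differ by some bases from the gene ends given above. Capitals mark matches to GGGNNTTTC, the core of an NF-kB type site, or to TATAAA, known as the TATA box, on either strand.
Cxcl1, chr5:90891135-90891244: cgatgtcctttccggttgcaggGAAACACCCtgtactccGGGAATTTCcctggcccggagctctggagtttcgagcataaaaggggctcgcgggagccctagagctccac
Cxcl2, chr5:90903789-90903898: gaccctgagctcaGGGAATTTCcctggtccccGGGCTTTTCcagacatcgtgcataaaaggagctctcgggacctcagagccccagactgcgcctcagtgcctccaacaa
Cxcl3, chr5:90785991-90786100: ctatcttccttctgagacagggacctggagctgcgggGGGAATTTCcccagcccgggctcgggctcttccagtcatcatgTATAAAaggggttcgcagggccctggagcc
Ppbp, chr5:90768408-90768517: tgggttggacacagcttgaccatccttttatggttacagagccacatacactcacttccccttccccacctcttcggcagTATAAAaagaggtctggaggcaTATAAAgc
The 3 chemokine promoters share the 9 letters GGGAATTTC, which end 63, 89 and 65 bases before the start of Cxcl1, Cxcl2 and Cxcl3. Matches were sought in the 250 bases before the start, without the 50 bases after it that the promoter table also holds. There GGGNNTTTC was found in 4 of the 6 members listed, the fourth being Cxcr2 at -157 to -149, and in 3.72% of all 32851 promoters. Cxcl5 had no entry among them, so its promoter was not examined. TATAAA was found in Cxcl3 and Ppbp, at -30 to -25 in both, and in 12.4% of all promoters. These matches are descriptions of letters, not of sites in use.

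In skin, every member that was called was higher with MC903, and which members were called varied between the groups. A gene was called when the Benjamini-Hochberg adjusted p of edgeR's quasi-likelihood test over all tested genes was below 0.05 in skin and spinal cord or 0.1 in TG. In skin labelled BLT1.KO, 5 of the 7 members rose (Cxcl1, Cxcl2, Cxcl3, Cxcl5 and Cxcr2), where 28.6% of all 25771 tested genes were called in either direction. In PBS-injected skin the same 5 symbols rose, where 3.99% of genes were called; only Cxcl2, Cxcl3 and Cxcl5 were called once ethanol replicate 1 was left out. In TSLPR.KO skin on Day_12, 3 members rose (Cxcl2, Cxcl3 and Cxcl5), where 10% of genes were called, and each fit without 1 library called 3.

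The remaining skin groups stood as follows. With aGr1, 6 of the 7 members rose, where 32.6% of genes were called. In TSLPR.KO skin on Day_8, 2 rose (Cxcl1 and Cxcl5), where 2.45% of genes were called, and only 1 of them without MC903 replicate 1 or without ethanol replicate 1; the count was 4 with DESeq2, with no filter on low counts and with the replicate block. In uninjected wild-type skin, 1 member rose on Day_1 (Cxcr2), where 13% of genes were called, 6 rose on Day_5 (14.9%) and 6 on Day_8 (23.4%), Cxcr1 being the exception on both days. The Day_5 count fell to 3 without ethanol replicate 1, ethanol replicate 2 or MC903 replicate 1, and to 1 without MC903 replicate 2. On Day_2, 0 of 6 tested members and 0% of genes were called by edgeR, 2 members and 1190 of 24580 genes had an unadjusted p under 0.05, and DESeq2 called 0 members. The members' share was above the share of all genes in 8 of these 9 comparisons, but on Day_1 (1 of 7 against 13%) it was near that share. Members are counted over all 7 and genes over those tested. Members that reached the count filter in the MC903 libraries alone had to differ, so these counts are not a test of the list.

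**Figure D1:**
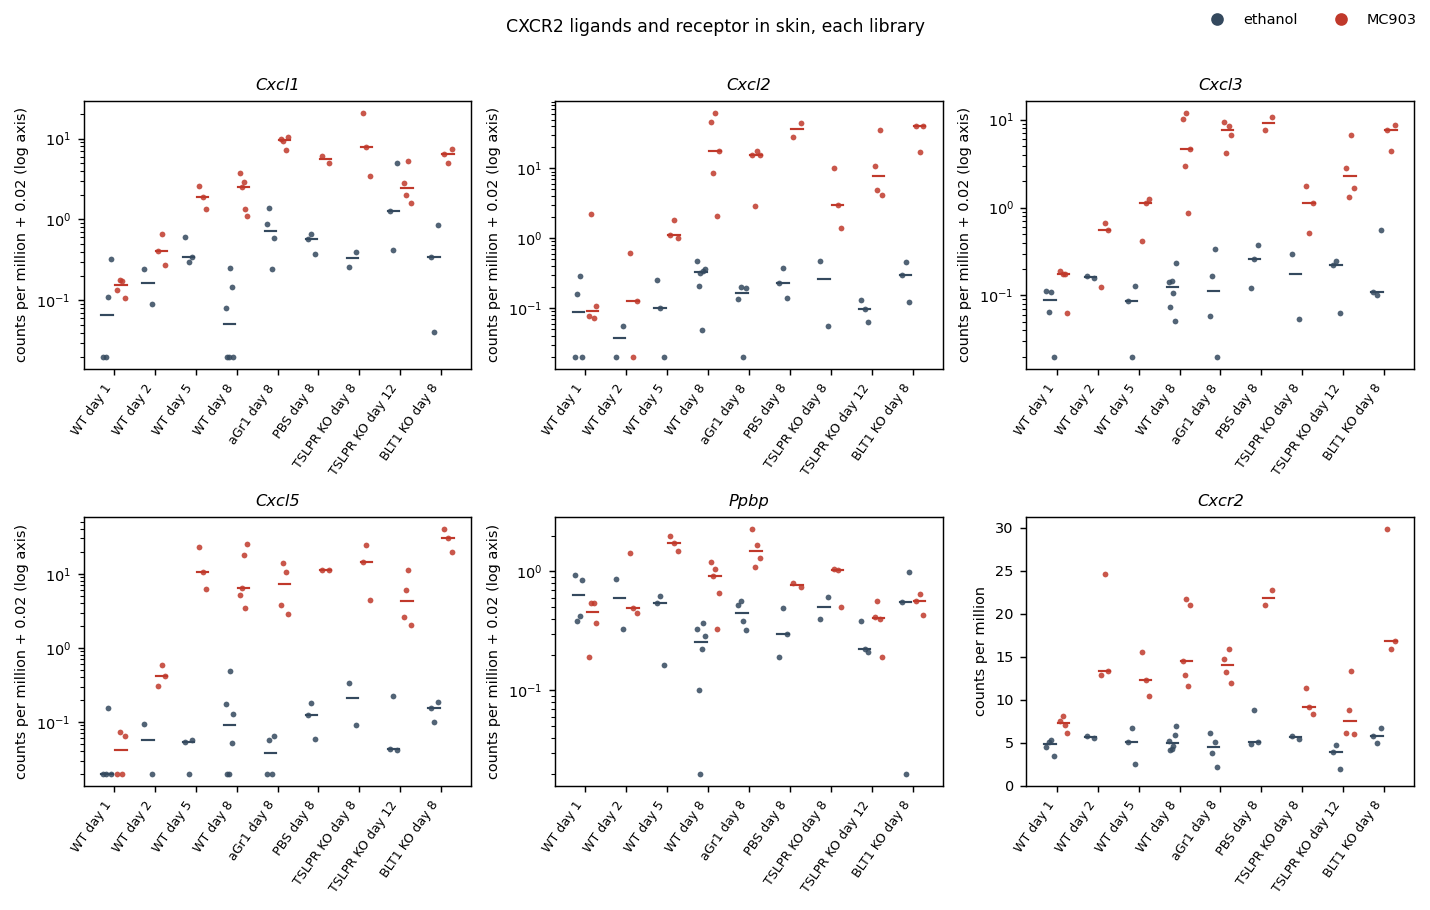
Level of each member but Cxcr1 in every skin library used, in cpm, for 9 comparisons (x axis: group and day; dark points: ethanol; red points: MC903; bars: medians). Axes are logarithmic after adding 0.02, except for Cxcr2, whose axis is linear from 0. In skin labelled BLT1.KO, the MC903 libraries lie at 17.1 to 40.7 cpm for Cxcl2 and at 19.8 to 39.8 cpm for Cxcl5, above all ethanol libraries.

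Cxcl5, a chemokine made largely by epithelial cells, had the largest rise of any member in skin labelled BLT1.KO. The 3 ethanol libraries were at 0.134, 0.0804 and 0.163 cpm and the 3 MC903 libraries at 39.8, 29.98 and 19.8 cpm, with no overlap. The rise was 225-fold (log2 fold change 7.81 ± 0.36 SE, adjusted p = 8.4e-06). In PBS-injected skin the ethanol libraries were at 0.103, 0.159 and 0.0395 cpm and the 2 MC903 libraries at 11.3 and 11.2 cpm and the rise was 109-fold (6.76 ± 0.41, adjusted p = 0.0013). On Day_12 in TSLPR.KO skin, ethanol libraries were at 0.0225, 0.202 and 0.0213 cpm and MC903 libraries at 2.60, 6.06, 11.1 and 1.999 cpm. The lowest MC903 library was still above every ethanol library (5.93 ± 0.87, adjusted p = 0.0036), and the log2 change was 5.31 without MC903 replicate 3 and 7.43 without ethanol replicate 2. With aGr1, Cxcl5 had at most 1 count in each ethanol library and 3.79, 13.99, 10.6 and 2.83 cpm with MC903, at least 63.4-fold higher than the 3 counts per library taken as the floor (adjusted p = 0.00025). It went in TSLPR.KO skin on Day_8 from 0.311 and 0.0693 cpm to 14.4, 24.2 and 4.47 cpm (6.25 ± 0.89, adjusted p = 0.0071), and the call was lost without MC903 replicate 1 (adjusted p = 0.074). Its log2 change there was 5.58 without MC903 replicate 2 and 7.58 without ethanol replicate 1. On Day_2 in wild-type skin it had 2 and 0 counts with ethanol and 8, 13 and 11 counts with MC903, at least 3.85-fold higher, although at an adjusted p of 0.90.

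Cxcl2, an inducible chemokine of macrophages, neutrophils and epithelium, reached the highest level of any ligand per kilobase of exon, 30.3 cpm per kb in a wild-type MC903 library of Day_8. It was, in skin labelled BLT1.KO, at 0.282, 0.442 and 0.102 cpm with ethanol and at 40.3, 17.1 and 40.7 cpm with MC903. The difference was 114.3-fold (6.84 ± 0.51, adjusted p = 4.5e-05). In PBS-injected skin it rose from 0.206, 0.357 and 0.119 cpm to 28.05 and 45.1 cpm, 162-fold (7.34 ± 0.44, adjusted p = 0.0013). The Day_12 ethanol libraries of TSLPR.KO skin had 0.112, 0.0756 and 0.0426 cpm, that is 5, 3 and 2 counts, and the MC903 libraries 10.7, 4.89, 36.02 and 4.09 cpm. The groups did not overlap although the MC903 libraries spread widely, and the difference was 152-fold (7.25 ± 1.06, adjusted p = 0.0036), or 6.18 on the log2 scale without MC903 replicate 3. With aGr1, 3 of the MC903 libraries were at 15.7, 17.8 and 15.7 cpm and replicate 2 stood apart at 2.92 cpm, while ethanol libraries were at 0 to 0.183 cpm (6.29 ± 0.77, adjusted p = 0.0004). The Day_8 MC903 values of TSLPR.KO skin, 10.2, 2.99 and 1.37 cpm, were above 0.449 and 0.0347 cpm with ethanol, and the difference missed the threshold (4.30 ± 1.02, adjusted p = 0.065). It passed with DESeq2 (adjusted p = 0.035), with no filter (4.1e-05), with the replicate block (1.8e-07), with all skin groups in 1 fit (0.040) and without MC903 replicate 3 (0.036).

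Cxcl3, the closest relative of Cxcl2 in the cluster, rose with it at lower levels. Skin labelled BLT1.KO had 0.0891, 0.0804 and 0.530 cpm with ethanol and 7.50, 4.39 and 8.66 cpm with MC903. The groups did not overlap (4.84 ± 0.71, adjusted p = 0.0012), and the log2 change was 6.30 without ethanol replicate 3. In PBS-injected skin it went from 0.103, 0.238 and 0.356 to 7.70 and 10.6 cpm (5.33 ± 0.46, adjusted p = 0.0028). TSLPR.KO skin on Day_12 went from 0.202, 0.227 and 0.0426 to 2.82, 1.31, 6.72 and 1.66 cpm (4.14 ± 0.73, adjusted p = 0.0083), with MC903 replicate 3 highest as it was for Cxcl1, Cxcl2 and Cxcl5; without that library the log2 change was 3.46, and with the replicate block the adjusted p was 0.063. With aGr1 it rose from 0 to 0.316 cpm up to 4.15 to 9.46 cpm (5.48 ± 0.57, adjusted p = 0.00017; 6.22 without ethanol replicate 3). TSLPR.KO skin on Day_8 was at 1.73, 0.488 and 1.10 cpm with MC903 and 0.277 and 0.0347 cpm with ethanol, not overlapping but short of the threshold (2.80 ± 0.87, adjusted p = 0.16); it was called with DESeq2 (0.038), with no filter (0.025) and with the replicate block (0.035).

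Cxcl1, an early neutrophil chemoattractant of epithelium and stroma, was called in each group sampled on Day_8 and not on Day_12. The BLT1.KO ethanol libraries had 0.327, 0.0201 and 0.836 cpm and the MC903 libraries 6.42, 5.02 and 7.46 cpm. The MC903 values lay close together and the ethanol values did not (3.94 ± 0.81, adjusted p = 0.0067; 5.09 without ethanol replicate 3). Uninjected wild-type skin and TG libraries of Day_8 were split by their titles: those of cohort A carry a bracketed library name and those of cohort B do not. No label calls them cohorts or says what sets them apart. In wild-type skin on Day_8 the MC903 libraries were at 3.76, 2.53 and 2.86 cpm in cohort A and 1.33 and 1.09 cpm in cohort B (4.92 ± 0.73, adjusted p = 0.00038). The log2 change was 5.87 without ethanol replicate B-1, and in cohort B alone it was 3.30 and not called (adjusted p = 0.062). In PBS-injected skin it rose from 0.550, 0.635 and 0.356 to 6.15 and 4.93 cpm (3.45 ± 0.34, adjusted p = 0.0046), a call lost without ethanol replicate 1 (adjusted p = 0.075). With aGr1 it rose from 0.8496, 1.35, 0.226 and 0.565 to 9.96, 9.41, 7.19 and 10.5 cpm (3.16 ± 0.47, adjusted p = 0.0012). On Day_8 in TSLPR.KO skin it rose from 0.242 and 0.381 to 20.8, 7.76 and 3.47 cpm (5.07 ± 0.80, adjusted p = 0.012), and the call was lost without ethanol replicate 1 (adjusted p = 0.074); without MC903 replicate 1 the log2 change was 4.21.

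In TSLPR.KO skin on Day_12, Cxcl1 was the only 1 of the 4 inducible ligands that did not separate the treatments. The ethanol libraries were at 1.24, 0.403 and 5.004 cpm and the MC903 libraries at 2.84, 1.99, 5.31 and 1.56 cpm. Ethanol replicate 3, with 235 counts, was higher than 3 of the 4 MC903 libraries, and the fitted difference was near 0 (log2 fold change 0.01 ± 0.78, adjusted p = 0.99). The overlap rests on that library, because the ethanol libraries at 1.24 and 0.403 cpm were below every MC903 library. The fitted difference without it was not followed. Ethanol replicate 3 had 2 counts of Cxcl2, 2 of Cxcl3 and 1 of Cxcl5, so its high Cxcl1 was not shared by these ligands. The MC903 effect on Cxcl1 on Day_12 minus that on Day_8 was -5.10 ± 1.38 in log2 units in these mice, which did not pass (unadjusted p = 0.0024, adjusted p = 0.51), and -3.47 without that library (adjusted p = 0.58).

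**Figure D2:**
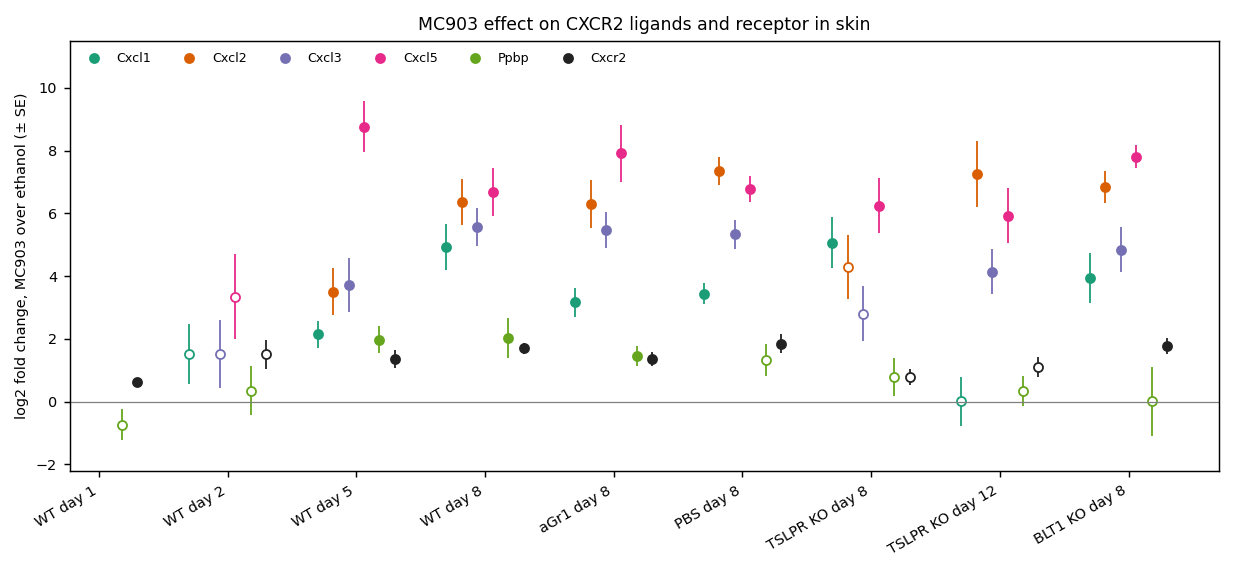
Log2 fold change of MC903 over ethanol for 6 members in the 9 skin comparisons (y axis; error bars: SE; filled points: called; open points: not called; values resting on a few counts are left out). In TSLPR.KO skin on Day_12, Cxcl1 lies at 0.01 while Cxcl2 lies at 7.25, and Ppbp lies at 0.01 in skin labelled BLT1.KO.

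Ppbp, the platelet chemokine gene, was called in 3 of the 9 skin comparisons. The BLT1.KO ethanol libraries were at 0.535, 0 and 0.979 cpm and the MC903 libraries at 0.543, 0.630 and 0.411 cpm, all within the ethanol range (log2 fold change 0.01 ± 1.09, adjusted p = 1.0). The groups overlapped on Day_12 in TSLPR.KO skin as well, at 0.360, 0.202 and 0.192 cpm against 0.391, 0.544, 0.381 and 0.171 cpm (0.33 ± 0.47, adjusted p = 0.72). In PBS-injected skin both MC903 libraries, at 0.775 and 0.728 cpm, were above ethanol at 0.172, 0.476 and 0.277 cpm, without passing the threshold (1.32 ± 0.51, adjusted p = 0.25). The rises that passed were, with aGr1, from 0.502, 0.548, 0.362 and 0.304 to 2.24, 1.07, 1.66 and 1.29 cpm (1.45 ± 0.33, adjusted p = 0.0092), in wild-type skin on Day_5 from 0.5256, 0.602 and 0.145 to 1.95, 1.72 and 1.47 cpm (1.97 ± 0.43, adjusted p = 0.021), and on Day_8 from 0 to 0.350 cpm (6 libraries, median 0.236) to 1.18, 0.891, 1.03, 0.308 and 0.638 cpm, of which 4 of 5 were above all ethanol libraries (2.04 ± 0.64, adjusted p = 0.035).

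Each of those Ppbp calls had an exception. With all skin groups in 1 fit the aGr1 value had an adjusted p of 0.079. The Day_5 call was lost without ethanol replicate 1, MC903 replicate 1 or MC903 replicate 2 (adjusted p = 0.058, 0.069 and 0.072). The Day_8 call, whose libraries come from cohorts A and B, was lost without MC903 replicates A-skin1, A-skin2, A-skin4 or B-2 or ethanol replicate A-skin6 (adjusted p from 0.061 to 0.080), and in cohort B alone the change was 0.82 (adjusted p = 0.60). Of the 8 platelet and megakaryocyte genes followed beside Ppbp, summed cpm went from 31.9 to 51.7 with ethanol up to 72.7 to 98.6 with MC903 in aGr1 skin and from 35.5 to 37.5 up to 51.5 to 64.5 in skin labelled BLT1.KO, where Ppbp was not called. Pf4, in that list, is also made by macrophages. In these bulk samples fewer cells of a type and less RNA per cell cannot be told apart.

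Cxcr2, the receptor of neutrophils, was measured well above the floor in every library and was the only member called in wild-type skin on Day_1. Only 5 of the 7 members were tested there and most ligands had few counts, so an order of rise among members cannot be read. On Day_1 the ethanol libraries of wild-type skin were at 4.55, 5.11, 5.37 and 3.47 cpm and the MC903 libraries at 7.52, 8.12, 7.06 and 6.16 cpm, without overlap. The rise was 1.54-fold (log2 fold change 0.62 ± 0.15, adjusted p = 0.026). It stayed between 0.56 and 0.73 in the 8 fits without 1 library but missed the threshold in 6 of them (without MC903 replicate 1, 2 or 3 or ethanol replicate 2, 3 or 4), and in the fit of all skin groups together (adjusted p = 0.23). On Day_2 it was at 5.83 and 5.57 cpm with ethanol and at 12.9, 24.6 and 13.3 cpm with MC903, again without overlap (1.51 ± 0.46, adjusted p = 0.84). The replicate block (1.66, adjusted p = 0.0036) and the fit of all skin groups (1.53, adjusted p = 0.0032) called it. The MC903 library at 12.9 cpm carried 253 cpm of Scn10a, against 2.07 to 2.21 cpm in the others of that comparison.

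On Day_5 Cxcr2 rose from 5.12, 6.74 and 2.53 to 15.5, 12.3 and 10.4 cpm in wild-type skin (1.36 ± 0.28, adjusted p = 0.017), a call lost without ethanol replicate 1, MC903 replicate 1 or MC903 replicate 2 (adjusted p = 0.058, 0.059 and 0.060). On Day_8 it rose from 4.21 to 7.004 cpm (6 libraries, mean 5.20) to 14.5, 12.9, 21.7, 11.6 and 20.99 cpm (1.70 ± 0.19, adjusted p = 3.9e-05). It went in skin labelled BLT1.KO from 5.79, 4.95 and 6.73 to 29.8, 15.9 and 16.9 cpm, 3.44-fold (1.78 ± 0.25, adjusted p = 0.00096). The ethanol libraries of all skin groups together spanned 2.002 to 8.81 cpm. In PBS-injected skin it went from 4.81, 8.81 and 5.10 to 20.97 and 22.7 cpm (1.84 ± 0.31, adjusted p = 0.028), and this call was lost without either MC903 library, without ethanol replicate 1 or 3 and with the replicate block (adjusted p from 0.060 to 0.18). With aGr1 it went from 6.10, 3.84, 5.06 and 2.22 to 14.8, 13.2, 15.9 and 11.9 cpm (1.36 ± 0.22, adjusted p = 0.0021).

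In TSLPR.KO skin the MC903 libraries were above all ethanol libraries on both days, but Cxcr2 did not pass. On Day_8 it was at 11.4, 9.19 and 8.31 cpm against 5.81 and 5.48 cpm (0.78 ± 0.26, adjusted p = 0.19). On Day_12 it was at 6.14, 8.80, 13.3 and 5.97 cpm against 3.98, 4.69 and 2.002 cpm (1.10 ± 0.32, adjusted p = 0.062), and there DESeq2 (0.011), the fit without a filter (0.048) and the fit of all skin groups (0.0072) called it. Cxcr1 stayed near the floor, with 0 to 9 counts in every skin library. With BLT1.KO it had 0 counts in each ethanol library and 4, 7 and 4 counts with MC903, at least 1.70-fold higher than 3 counts per library (adjusted p = 0.097; 0.013 and called with all skin groups in 1 fit), and with PBS it had 0 and then 2 and 4 counts.

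Levels were compared between ligands only per kilobase of exon. In MC903-treated skin labelled BLT1.KO, Cxcl5 (16.02 ± 5.37 cpm per kb, SD, 3 libraries) and Cxcl2 (15.8 ± 6.53) differed by less than their spread, and made 43.1% and 42.6% of the sum of Cxcl1, Cxcl2, Cxcl3 and Cxcl5; Cxcl1 (3.36 ± 0.65) and Cxcl3 (1.96 ± 0.63) were lower. The sum, 37.2 cpm per kb, was the highest of the 9 MC903 skin groups. In PBS-injected skin Cxcl2 (17.7 ± 5.83, 2 libraries) made 60.4% of a sum of 29.3 and Cxcl5 (6.02 ± 0.04) 20.6%. Cxcl2 in TSLPR.KO skin on Day_12 made 55.6% of a sum of 12.1, although its values from 1.98 to 17.4 cpm per kb overlapped those of Cxcl5, from 1.07 to 5.98.

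The order of the ligands differed among the remaining groups. Cxcl5 led in wild-type skin on Day_5 (78.9% of 9.05 cpm per kb) and in TSLPR.KO skin on Day_8 (47.9% of 16.1), where Cxcl1 followed with 35.5% and its values overlapped those of Cxcl5. Cxcl2 had the highest mean in wild-type skin on Day_8 (59.3% of 22.5), although its values from 1.01 to 30.3 cpm per kb overlapped those of Cxcl5, from 1.82 to 13.4, and Cxcl5 was the higher of the pair in both cohort B libraries. It had the highest mean with aGr1 as well (36.1% of 17.5), where Cxcl1 (28.3%) and Cxcl5 (23.95%) overlapped it. Cxcl3 was the lowest of the 4 in each group from Day_5 on except wild-type skin on Day_8, where Cxcl1 was lowest at 5.49%. Counting over the longest transcript instead of all exons left every share within the replicate spread. The lengths were nearly equal (for Cxcl1 1871 against 1875 bases), so the shares could hardly move.

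**Figure D3:**
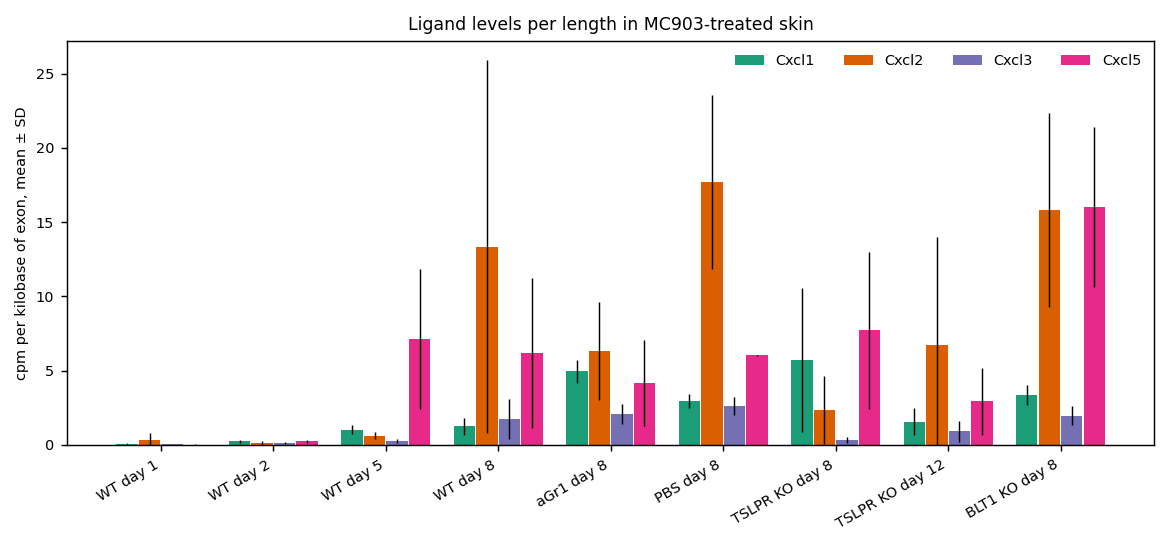
Mean level of the 4 inducible ligands in MC903-treated skin, in cpm per kilobase of exon (y axis, linear from 0; error bars: SD over 2 to 5 libraries), by group and day. Cxcl2 and Cxcl5 stand side by side at 15.8 and 16.02 in skin labelled BLT1.KO, while Cxcl5 alone leads at Day_5 in wild-type skin.

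Genes around the axis were followed in 5 lists: other CXC ligands, decoy and other chemokine receptors of neutrophils, other neutrophil chemoattractant receptors, cytokines that raise CXCR2 ligands or neutrophil output, and NF-kB feedback, mRNA decay and adhesion genes. The list called chemoattractant receptors for short also holds Csf3r, Csf2rb and Tlr2, which are receptors of other kinds. In skin labelled BLT1.KO, 28.6% of all genes were called in either direction. There 6 of 11 tested cytokines rose and none fell (median log2 fold change 2.98 over the list, -0.04 over all genes). Of the chemoattractant receptors 7 of 10 rose (median 1.84), and of the NF-kB and adhesion genes 11 of 13 (median 1.15). Il1b, a cytokine that induces the ligands, was at 33.1 to 83.1 cpm with MC903 and 0.594 to 1.69 cpm with ethanol (5.56 ± 0.46, adjusted p = 6.8e-05). Sele, the endothelial selectin on which neutrophils roll, was at 39.3 to 54.1 against 0.724 to 2.71 cpm (4.80 ± 0.44, adjusted p = 0.00011). Csf3r, the receptor for granulocyte colony-stimulating factor, was at 22.3 to 42.5 against 2.63 to 5.20 cpm (2.86 ± 0.32, adjusted p = 0.00027). Of the decoy list only Ccr1 rose, and the scavenging receptors Ackr1, Ackr2 and Ackr3 fell, Ackr1 from 39.9 to 52.4 cpm down to 24.3 to 26.7 cpm (-0.82 ± 0.15, adjusted p = 0.0042). Of the other CXC ligands 4 of 7 rose: Cxcl12, Cxcl13, Cxcl14 and Cxcl16 (median 0.77).

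In PBS-injected skin, where 3.99% of genes were called in either direction, 6 of 10 cytokines, 6 of 10 chemoattractant receptors and 6 of 13 NF-kB and adhesion genes rose. None fell (medians 2.92, 1.63 and 0.91, against -0.01 over all genes), and Cxcl13 and Ccr1 rose as well. Il1b was at 50.3 to 67.5 against 1.17 to 1.79 cpm (5.27 ± 0.28, adjusted p = 0.0012), Il6, a cytokine of the acute phase, at 9.54 to 10.1 against 0.103 to 0.277 cpm (5.59 ± 0.39, adjusted p = 0.0018), and Csf3r at 15.97 to 17.6 against 2.41 to 3.02 cpm (2.62 ± 0.22, adjusted p = 0.0026). Counts in TSLPR.KO skin on Day_12, where 10% of genes were called in either direction, were lower. There 3 of 10 cytokines (Il1a, Osm and Il1b) rose, as did 4 of 10 genes of the chemoattractant receptor list (Csf2rb, Tlr2, Fpr2 and Fpr1). Also higher were 2 of 13 NF-kB and adhesion genes (Sele and Selp) and Ccr1, and no gene of these lists fell. Medians in this order were 1.48, 0.93, 0.25 and -0.16, against -0.02 over all genes. The NF-kB and adhesion count, and Ccr1 as the only gene called of 6 in its list, were near the share of all genes. Il1b was there at 7.87 to 53.3 against 0.720 to 1.49 cpm (4.08 ± 0.70, adjusted p = 0.0076). Il6, at 0.171 to 2.46 against 0 to 0.0504 cpm, had an adjusted p of 0.050 and was not called.

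The same lists gave the other skin groups a wide range, with the share of all genes called in each comparison given again in parentheses. With aGr1 (32.6% of genes called in either direction), 6 of 11 cytokines, 8 of 10 chemoattractant receptors and 8 of 13 NF-kB and adhesion genes rose, Csf3r among them from 1.91 to 3.40 cpm up to 7.04 to 13.8 cpm (1.65 ± 0.24, adjusted p = 0.0011); Cxcl12, Cxcl13, Pf4 and Ccr1 rose and Cxcl17 fell. In wild-type skin on Day_8 (23.4%) all 13 NF-kB and adhesion genes, 9 of 10 chemoattractant receptors, 7 of 10 cytokines, 3 of 6 decoy and other receptors and 2 of 7 CXC ligands rose. On Day_5 (14.9%) the counts in the same order were 2 of 13, 5 of 10, 4 of 8, 2 of 6 and 3 of 6, with Cxcl17 lower, so that the first was near the share of all genes. They were, on Day_8 in TSLPR.KO skin (2.45%), 2 of 13, 1 of 10, 2 of 10, 1 of 6 and 0 of 7. List medians in the order of the Day_8 counts were 1.07, 1.97, 4.12, 0.57 and 0.47 in wild-type skin on Day_8, 0.57, 1.16, 1.90, -0.41 and 0.56 on Day_5, 0.58, 1.35, 1.81, 0.21 and 0.42 with aGr1, and 0.56, 0.72, 1.29, -0.02 and -0.02 in TSLPR.KO skin on Day_8, against -0.03, -0.03, -0.02 and 0.00 over all genes.

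On Day_1, when Cxcr2 was higher, none of these lists had a gene that rose. There 6 of 13 NF-kB and adhesion genes, 4 of 9 chemoattractant receptors, 3 of 6 CXC ligands and 2 of 6 decoy and other receptors fell, and 0 of 8 cytokines was called, where 13% of all genes were called and 1849 of 24749 fell. The medians in this order were -0.41, -0.31, -1.0, -0.52 and -0.09, against 0.00 over all genes. Icam1, an endothelial adhesion molecule, went from 22.2 to 29.9 cpm down to 13.2 to 17.2 cpm (-0.80 ± 0.10, adjusted p = 0.0019), and Tlr2 from 10.6 to 16.8 cpm down to 5.71 to 7.39 cpm (-1.02 ± 0.15, adjusted p = 0.004). On Day_2 no gene of the 5 lists was called by edgeR.

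Summed markers of neutrophils were higher with MC903, without overlap, in uninjected wild-type, PBS-injected and TSLPR.KO skin on Day_8. They overlapped between treatments in the other groups given below, where some ethanol libraries stood high. The list held 14 genes, of which 12 were summed because S100a8 and S100a9 are also made by keratinocytes. The sum was 20.5 to 86.2 cpm with MC903 and 3.92 to 9.23 cpm with ethanol in wild-type skin on Day_8, 39.9 to 66.98 against 4.03 to 6.07 cpm with PBS, and 17.6 to 32.8 against 5.23 to 8.75 cpm in TSLPR.KO skin on Day_8. In skin labelled BLT1.KO it was 45.4 to 81.4 against 12.7 to 120.8 cpm, in TSLPR.KO skin on Day_12 19.3 to 43.8 against 10.8 to 212 cpm, with aGr1 32.3 to 81.03 against 4.57 to 188 cpm, and on Day_5 20.3 to 62.9 against 33.4 to 120 cpm. The high ethanol sums came largely from Ltf, which gland and other epithelial cells also make and which alone reached 209 cpm in TSLPR.KO and 185 cpm in aGr1 skin. Ly6g, the defining surface marker, had 0 to 17 counts in every skin library used. Keratinocyte markers rose with MC903 too, from 11645 to 14830 cpm up to 21193 to 25628 cpm (8 genes summed) in skin labelled BLT1.KO. The part of cell numbers in the ligand and receptor values was not tested.

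Across the 18 skin groups, likeness between genes was described by the correlation of group means of log2(cpm + 0.5), which share treatment and libraries and so carry no p. Of 20109 genes, those most like Cxcl2 were Acod1 (Pearson r = 0.992), an enzyme of activated macrophages, Fpr1 (0.984), a receptor for bacterial peptides on neutrophils, Cxcl3 (0.980), S100a9 (0.97) and Cd300lf (0.968). Those most like Cxcl5 were Lce3d (0.981), a gene of the cornified envelope, Tmprss11b (0.980), Saa3 (0.980), an acute-phase gene, Sdcbp2 (0.976) and 4732465J04Rik (0.975). Among those most like Cxcr2 were Pfkfb4 (0.949), Rbms1 (0.948), Gm37010 (0.947) and Ripk3 (0.941). Among the members, Cxcl2 and Cxcl5 had r = 0.902, Cxcl2 and Cxcr2 0.810, and Ppbp had 0.414 to 0.648 with the rest.

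Whether the MC903 effect itself differed between groups was tested as an interaction in 7 pairs of skin groups, and edgeR called 0 members in each. Groups set against uninjected wild-type skin on Day_8 share those libraries. The effect in skin labelled BLT1.KO minus that in wild-type skin was 0.51 ± 1.10 for Cxcl2, 1.18 ± 1.2 for Cxcl5, -0.93 ± 1.18 for Cxcl1, 0.14 ± 0.33 for Cxcr2 and -1.99 ± 1.27 for Ppbp (6.95% of genes were called; 0 members had an unadjusted p under 0.05). These errors leave room for differences of more than 1 log2 unit in most ligands in either direction. For PBS against no injection, 0.0146% of genes and 0 members were called, and the difference was -1.46 ± 1.04 for Cxcl1 and 0.98 ± 1.26 for Cxcl2; that of Cxcl1 was -3.67 with cohort A alone as the uninjected group and 0.12 with cohort B alone. For aGr1 against no injection, 4.56% of genes were called and Cxcl1 had -1.72 ± 0.93 (unadjusted p = 0.070, adjusted p = 0.29), which was -3.86 with cohort A alone (adjusted p = 0.056) and -0.15 with cohort B alone (adjusted p = 0.96). For aGr1 against PBS, 0.232% were called and Cxcl2 had -1.0 ± 1.14. In none of these 3 did a member have an unadjusted p under 0.05.

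For TSLPR.KO against wild-type skin on Day_8, 0.177% of genes were called and 2 members had an unadjusted p under 0.05: Cxcr2 (-0.88 ± 0.32, unadjusted p = 0.014, adjusted p = 0.28) and Cxcl3 (-2.74 ± 1.30, unadjusted p = 0.049, adjusted p = 0.39). Cxcl2 was at -2.03 ± 1.62, and at 0.56 without ethanol TSLPR.KO replicate 1. For TSLPR.KO on Day_12 against Day_8, 0% of genes were called, with 2028 of 26971 at an unadjusted p under 0.05, and Cxcl1 was the only member at such a p. Cxcl2 was at 2.90 ± 1.78 there, and Cxcl3 at 1.30 ± 1.24 and at -0.68 without Day_8 ethanol replicate 1. For wild-type Day_8 against Day_5, 1.62% of genes were called and Cxcl1 had a difference of 2.77 ± 1.03 (unadjusted p = 0.013, adjusted p = 0.18), which DESeq2 called (2.99, adjusted p = 0.043) as did edgeR with cohort A alone (4.98, adjusted p = 0.020), while with cohort B alone it was 1.2 (adjusted p = 0.75). DESeq2 called 0 members in the other 6 interactions.

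Levels with aGr1 and with PBS were also compared within each treatment. In MC903-treated skin 0.213% of genes and 0 members were called, with 2 members at an unadjusted p under 0.05: Cxcl2 had a log2 difference, aGr1 minus PBS, of -1.43 ± 0.56 (unadjusted p = 0.024, adjusted p = 0.36; -1.10 without aGr1 replicate 2, the library at 2.92 cpm) and Ppbp had a difference of 1.11 ± 0.42 (unadjusted p = 0.021, adjusted p = 0.34). Cxcr2 differed by -0.58 ± 0.29 (unadjusted p = 0.064). In ethanol-treated skin 1.91% of genes and 0 members were called, with Ppbp at 0.93 ± 0.42 (unadjusted p = 0.043, adjusted p = 0.20) and Cxcl1 at 1.05 ± 0.50, the latter called without aGr1 replicate 3 (1.40, adjusted p = 0.027). DESeq2 called 0 members in both. The summed neutrophil markers overlapped between the injections in MC903-treated skin, at 32.3 to 81.03 cpm with aGr1 and 39.9 to 66.98 cpm with PBS. Single markers went both ways: Ly6g had 0 to 1 count with aGr1 and 1 to 5 with PBS and Trem1 27 to 38 against 63 to 104, whereas Ngp had 11 to 69 against 1 to 5. These 3 were chosen after their values were seen.

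**Figure D4:**
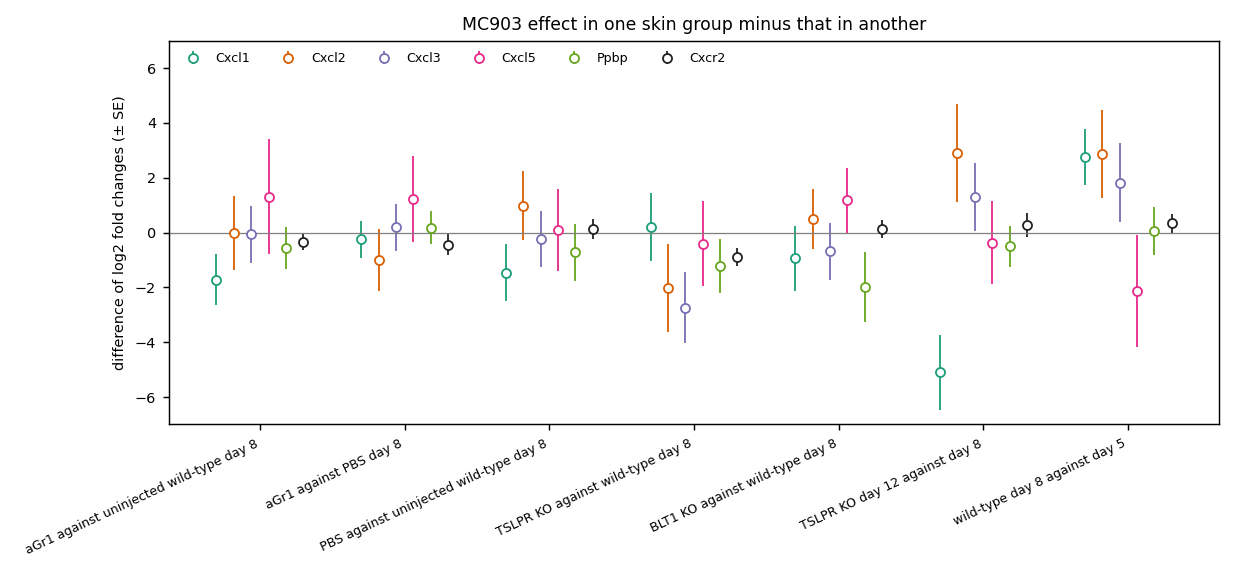
Difference between the log2 MC903 effects of 2 skin groups, first minus second, for 6 members in 7 pairs of groups (y axis; error bars: SE; open points: not called). All points are open, and Cxcl1 for TSLPR.KO Day_12 against Day_8 lies lowest at -5.10.

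In TG and spinal cord no member was called in any of 11 comparisons. In TG, Cxcl1 had 0 to 9 counts per library, Cxcl2 0 to 8, Cxcl3 0 to 47 and Cxcl5 0 to 20, and in spinal cord Cxcl1 had 0 to 45, Cxcl2 0 to 8, Cxcl3 1 to 11 and Cxcl5 4 to 26. The percentages of all genes called in TG were 0% on Day_1, 0% on Day_2, 0.00823% on Day_5 and 0.16% on Day_8 in wild-type mice, 1.88% with aGr1, 3.36% with PBS, 0% in TSLPR.KO on Day_8 and 0.304% on Day_12. Members at an unadjusted p under 0.05 numbered 2 with aGr1, 1 in TSLPR.KO on Day_8 and 0 in the rest; over all genes 2034 of 25319, 1527 of 24092 and 1886 of 23402 had such a p in the comparisons on Day_1, Day_2 and in TSLPR.KO on Day_8. In spinal cord 12.2% of genes were called in wild-type mice, 11.3% with aGr1 and 0% with PBS (1571 of 24573 at an unadjusted p under 0.05), and members at an unadjusted p under 0.05 numbered 0, 1 and 0. DESeq2 called 1 member in TSLPR.KO TG on Day_8 and 0 members in the 10 other comparisons of these tissues.

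Cxcr2 was present in both neural tissues at levels near those of ethanol-treated skin, 1.83 to 8.86 cpm in TG and 3.83 to 9.35 cpm in spinal cord, and was not called in either. In TSLPR.KO TG on Day_12, MC903 libraries were at 1.83 to 5.15 and ethanol libraries at 3.56 to 5.53 cpm (-0.13 ± 0.25, adjusted p = 0.94). In spinal cord with aGr1 the 8 MC903 libraries were at 6.50 to 9.35 and the 6 ethanol libraries at 5.48 to 7.82 cpm, overlapping over most of that range (0.23 ± 0.10, unadjusted p = 0.028, adjusted p = 0.14). The part of reads from repeated sequence in these low, steady Cxcr2 levels was not tested.

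Ppbp ranged widely in these tissues, from 3 to 206 counts in TG. In TSLPR.KO TG on Day_8 the ethanol libraries were at 0.456 and 0.358 cpm and the MC903 libraries at 8.80 and 3.42 cpm. Both MC903 libraries were higher (log2 fold change 3.99 ± 0.64, unadjusted p = 0.00034), but with 2 libraries a group the adjusted p was 0.60; DESeq2 (6.7e-05), the fit with no filter (2.5e-09), the replicate block (6.8e-06) and the fit without MC903 replicate 2 (0.0029) called it. Red blood cell markers were at 4393 to 6333 cpm in those MC903 libraries and 1380 to 2102 cpm in the ethanol libraries, keratinocyte markers at 8.61 to 227 against 3.51 to 5.64 cpm, and platelet markers at 25.2 to 26.96 against 23.2 to 29.95 cpm. The library at 8.80 cpm, MC903 replicate 1, also had 13.2% ambiguous reads and 19% on no gene, against 2.32% to 2.40% and 11.8% to 12.6% in the others of that comparison, and the part of these in the Ppbp value was not tested. In TG with aGr1 Ppbp was at 0.213 to 3.0 against 0.145 to 0.571 cpm (1.84 ± 0.75, unadjusted p = 0.027, adjusted p = 0.31).

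In spinal cord with aGr1 a single MC903 library, replicate 1, was at 5.31 cpm of Ppbp and the other MC903 libraries had 1 to 23 counts; the difference of 1.2 ± 0.82 became -0.21 without it. In uninjected spinal cord ethanol replicate 4 had 67 counts, and the difference of -0.82 ± 0.72 became 0.17 without it. In spinal cord with PBS, Cxcl3 was at -1.03 ± 0.76 (adjusted p = 0.85) and was called lower without MC903 replicate 2 (-3.07, adjusted p = 0.028), which leaves 1 library assumed to vary as the ethanol pair does.

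**Figure D5:**
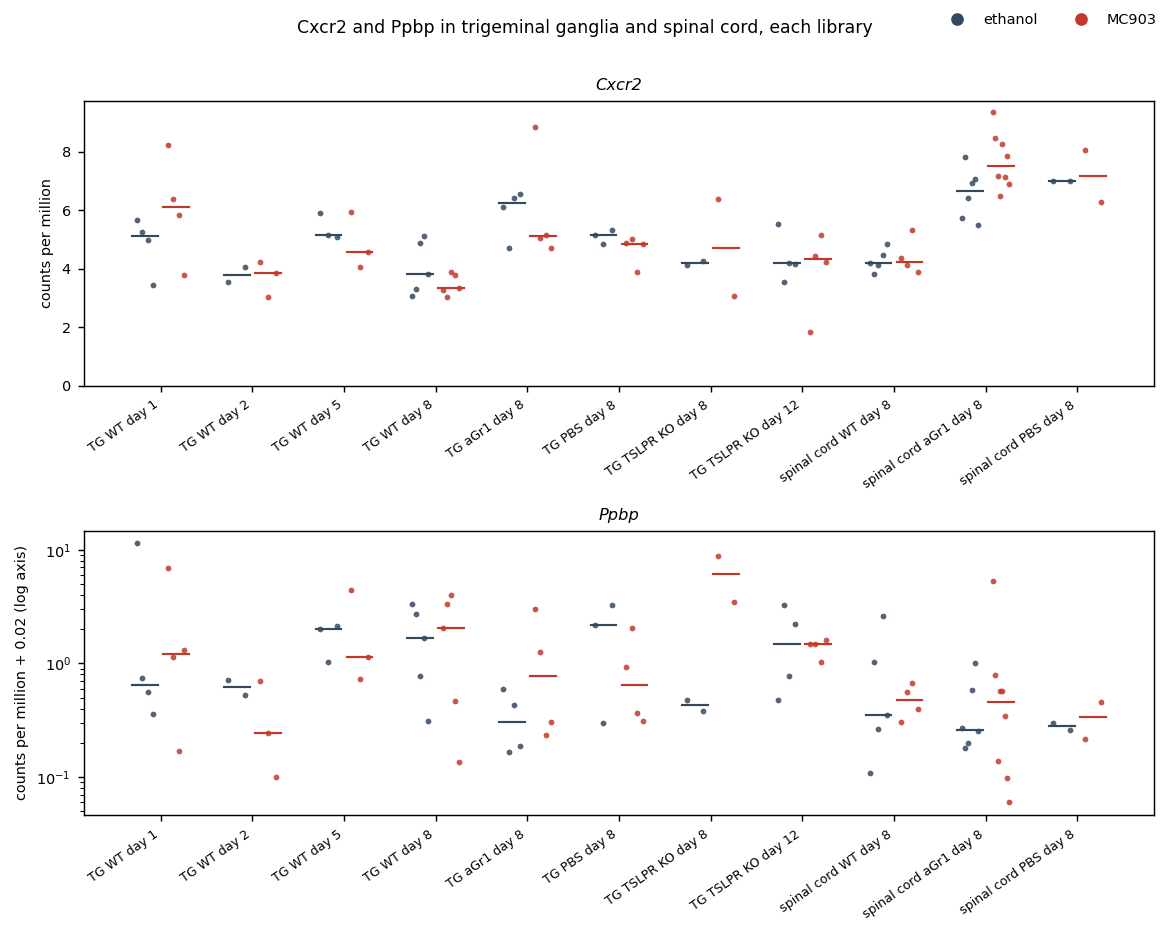
Level of Cxcr2 (upper panel, linear axis from 0) and Ppbp (lower panel, logarithmic axis after adding 0.02) in cpm in every TG and spinal cord library used, by group and day (dark points: ethanol; red points: MC903; bars: medians). Cxcr2 lies between 1.83 and 9.35 cpm throughout, and Ppbp in TSLPR.KO TG on Day_8 is at 3.42 and 8.80 cpm with MC903.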

How the data were processed

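Poly(A)-selected RNA from skin, TG and spinal cord was read as single-end reads. The authors mapped reads to mm10 with Bowtie2 and TopHat and deposited raw counts per Ensembl gene from HTSeq, 1 file per library; the annotation release and strand setting are not given in the sources used here. Tally lines were left out: reads on no gene were 6.15% to 21.5% and ambiguous reads 1.77% to 13.2% per library. Of 46078 identifiers, 45229 matched GENCODE M21 symbols.

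Values in cpm are counts divided by the library's counts on genes and scaled to a common total, without TMM. Genes with at least 10 counts over the fitted libraries were tested on the counts with edgeR 4.0.16 (TMM, glmQLFit, glmQLFTest; R 4.3.3) with Benjamini-Hochberg adjustment over all genes, in the libraries of each comparison only; the wild-type Day_8 fits carried the cohort as a term. SE is the size of the coefficient over the square root of F. Interactions and the aGr1 against PBS contrasts were fitted likewise. At or under 3 counts in every library of a group, a fold is a lower bound against 3 counts per library; where both groups are so low, counts are given. A direction was followed through the alternatives only where a change exceeded its SE or was a bound. The edgeR and DESeq2 fits of some comparisons were tested on simulated counts, and the other steps were not. Python 3.11.15, numpy 2.4.6, pandas 2.3.3 and matplotlib 3.10.9 were used.

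The labels do not say that libraries of a group came from separate animals, so p-values measure only the spread between these libraries, which may be technical. In the titles of cohort A, MC903 libraries A-skin1 and A-skin4 share a replicate number, as do ethanol libraries A-skin3 and A-skin7. The name of the TG ethanol library A-TG6_7 joins 2 numbers. All were fitted as separate libraries. Named were the 7 members, up to 4 genes per list and comparison by smallest p, and the 5 genes most like Cxcl2, Cxcl5 and Cxcr2, of which 1 is not reported here. Members and lists were chosen with earlier results of these data known. Of the 16 cytokines listed, 13 are in the table and 3 were not analysed here. Alternatives were DESeq2 1.42.0, RLE size factors, edgeR's filterByExpr, no filter, the replicate number as a block, all skin groups in 1 fit, single cohorts, and each library left out. Numbers were taken to pair the libraries where deviations of at least 3 same-numbered pairs all correlated above 0.1. This held only in TG of wild-type mice on Day_5 (r from 0.157 to 0.363) and of TSLPR.KO mice on Day_12 (0.234 to 0.628). Both pairs of wild-type skin on Day_2 also exceeded 0.1 (0.176 and 0.233), but 2 pairs are too few for that rule. Elsewhere libraries were taken to share only a number.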

Additional observations from a re-analysis of the deposited data

Results flagged for a closer look

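Of 97 sets of a member in a group of 4 to 10 libraries, 15 held a library that stood apart from its group by Dixon's criterion. Its chance rate of about 1 in 20 is for independent, normally spread values. These were untransformed cpm, some of a few counts, and the 15 came from 13 libraries. An excess over chance can therefore not be read from them. In skin, Cxcl2 was at 2.20 cpm in Day_1 MC903 replicate 2 (42 counts, the others at most 2) and at 2.92 cpm in MC903 replicate 2 with aGr1 (the others 15.7 to 17.8 cpm), and Cxcl5 was at 0.465 cpm in wild-type Day_8 ethanol replicate B-1. In TG on Day_1, MC903 replicate 1 stood high for Cxcl2 (0.254 cpm), Cxcl3 (0.659 cpm) and Ppbp (6.85 cpm), and ethanol replicate 1 for Ppbp (11.3 cpm, the others at most 0.721 cpm). In TG on Day_8, Cxcl5 was at 0.371 cpm in wild-type MC903 replicate B-3, at 0.354 cpm in wild-type ethanol replicate B-3 and at 0.306 cpm in ethanol replicate 3 with aGr1. Cxcr2 in TG was at 8.86 cpm in MC903 replicate 1 with aGr1 and, lowest of its group, at 3.90 cpm in MC903 replicate 3 with PBS. In spinal cord, Ppbp was at 5.31 cpm in MC903 replicate 1 with aGr1, Cxcl1 at 1.63 cpm in ethanol replicate 3 with aGr1 and Cxcl2 at 0.158 cpm in uninjected MC903 replicate 2.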

How the results depend on the processing

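Apart from fits that leave out 1 library, 467 of the 494 log2 changes that were followed kept their direction and side of the threshold. All 36 ligand shares stayed within the replicate spread, though nearly equal lengths left them little room to move. Of the counts of called members, 151 of 162 stayed within 1.5 times the reported count. Counts that moved further were those of wild-type skin on Day_1 (from 1 to 0 with all skin groups in 1 fit) and Day_2 (from 0 to 1 with the replicate block and with all skin groups), TSLPR.KO skin on Day_8 (from 2 to 4 with DESeq2, with no filter and with the replicate block), TSLPR.KO TG on Day_8 (from 0 to 1 with the same 3) and wild-type Day_8 against Day_5 (from 0 to 1 with DESeq2 and with cohort A alone). Within that tolerance, counts ranged from 4 to 7 in wild-type skin on Day_8 (reported 6), 2 to 4 in TSLPR.KO skin on Day_12 (3), 5 to 6 in skin labelled BLT1.KO (5), 5 to 6 with aGr1 (6), 4 to 5 with PBS (5) and 5 to 6 on Day_5 (6). Leaving out 1 library in turn gave 0 to 1 member on Day_1, 1 to 6 on Day_5, 3 to 5 with PBS, 1 to 3 in TSLPR.KO skin on Day_8, 0 to 1 in TSLPR.KO TG on Day_8, 0 to 1 in spinal cord with PBS and 0 to 1 for ethanol aGr1 against PBS. Changes that turned sign had a leave-one-out range of -1.10 to 0.17 (Ppbp, uninjected spinal cord), -0.21 to 1.72 (Ppbp, spinal cord with aGr1), -3.10 to 0.56 (Cxcl2, TSLPR.KO against wild-type) and -0.68 to 2.07 (Cxcl3, TSLPR.KO Day_12 against Day_8), and Cxcl1 for PBS against no injection was 0.12 with cohort B alone. The cause was not tested, except that fewer libraries were fitted in the fits without 1; an arm left with 1 library was assumed to vary like the other arm. The replicate block called no member in the 2 TG comparisons that the numbers pair; in PBS spinal cord, where same-numbered libraries went apart (r = -0.428), the block called 224 genes and a crossed pairing, chosen after seeing the data, 955, with 0 genes called without it and 0 members in all 3. In ethanol-treated skin Cxcl2 had 0 to 22 counts per library, Cxcl3 0 to 26 and Cxcl5 0 to 16, which limits the precision of their folds, and groups held 2 to 8 libraries.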
